A study of Mus musculus with 6 samples.

Results

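The tripartite motif (TRIM) family was followed in cells of the Lewis lung carcinoma (LLC), a line from a mouse lung tumour, after sorting from tumours. Its members were taken as all genes whose symbol was Trim followed by a number and optional letters, which gave 61 of the 18182 genes in the files. LLC cells carrying red fluorescent protein were grown under the skin of wild type C57BL/6 mice, either alone (LLC alone, 3 libraries) or together with bone marrow-derived mesenchymal stem cells (LLC with BMSCs, 3 libraries). Fluorescent cells were recovered from the primary tumours by flow cytometry, and their RNA was sequenced. The labels of the co-injected libraries name mesenchymal stem cells as well as carcinoma cells as the source. No label gives the age of the mice, or says whether the libraries of a group came from separate mice, so that the tests measure the spread between these libraries. The comparison describes how transcript levels in the sorted cells differed between tumours grown with and without BMSCs.

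The libraries held 33476347 to 46189113 estimated counts on genes. Counts were compared with edgeR's quasi-likelihood test over the 13353 genes that passed a filter on low counts, and a gene was called at a Benjamini-Hochberg adjusted p under 0.05. Levels are given in FPKM, which divides by transcript length and library total. LLC alone replicate 3 stood apart from its group, with a median log2 deviation from the mean of the 6 libraries of 0.31 among short genes (the fifth with the least length) and of -0.37 among long ones (the fifth with the greatest). LLC alone replicates 1 and 2, and LLC with BMSCs replicates 2 and 3, were closer to each other than the other pairs, although both pairs differed by more than counting noise.

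Cell type markers also moved between the groups. Markers listed for the carcinoma cells summed to 1644 to 1820 CPM in LLC alone and to 1555 to 1657 CPM in LLC with BMSCs, with 3 of 4 tested upregulated and 1 downregulated. Krt8 (keratin) had means of 95.3 and 110.02 FPKM, Vim (vimentin), the downregulated one, 886.7 and 791.6 FPKM, and Krt18 and Cdh2, the other upregulated ones, at most 0.653 FPKM. Vim held 1482 to 1643 CPM of the sums in LLC alone and 1357 to 1467 CPM in LLC with BMSCs. The paper treats Vim and Cdh2 (N-cadherin) as mesenchymal markers, so that the sums do not measure carcinoma cells alone. The epithelial markers Epcam and Cdh1 had means at or below 0.0333 FPKM in both groups. The summed level of 10 BMSC or fibroblast markers was 267.64 to 324.91 CPM (counts scaled to the library total) in LLC alone and 676.01 to 703.41 CPM in LLC with BMSCs, and 8 of the 8 tested were upregulated. For these markers Col3a1 rose from 41.2 to 100.03 FPKM, while Thy1 and Cxcl12 reached at most 0.03 and 0.10 FPKM in a library. The neutrophil markers summed to 0.47 to 0.79 CPM and to 21.24 to 23.99 CPM, with 7 of 7 tested upregulated. Among all tested genes the upregulated share was 31.5%. S100a9 held 9.551 to 11.901 CPM and S100a8 5.705 to 6.885 CPM of the sums with BMSCs. Ly6g, too low to test, had a lower mean with BMSCs (0.0467, against 0.08 FPKM without them), with overlapping groups. Elane, also untested, had a higher one (0.23, against 0 FPKM), and Retnlg was absent from the measured genes. Macrophage markers summed to 23.81 to 28.62 CPM and to 33.87 to 36.25 CPM, with 5 of 7 tested upregulated and 1 downregulated. The common leukocyte marker Ptprc rose from 0.03 to 0.45 FPKM, and the T cell marker Cd3e had a mean of 0.0067 FPKM in both groups. Endothelial markers summed to 12.06 to 15.32 CPM and to 12.39 to 12.98 CPM. The part of these markers' cells in the TRIM results was not tested, and in bulk RNA fewer cells of a type and less RNA per cell cannot be told apart.

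TRIM proteins are built from a RING finger, B-box zinc fingers and a coiled coil, followed by a variable C-terminal domain that selects the target. Most act as E3 ubiquitin ligases, which attach ubiquitin to proteins. Many members with a C-terminal SPRY domain are induced by interferon and restrict viruses or tune the sensing of foreign nucleic acid, while others control chromatin, microtubules or muscle proteins.

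Promoter sequences of the members are shown first, because interferon-responsive genes often carry a paired GAAA element near their start. RefSeq promoters on GRCm38, from 250 bases before to 50 bases after a start, were found for 47 members and covered 61 starts. The letters GAAANNGAAA, read on both strands, so that the reverse is TTTCNNTTTC, occurred in 10 of these 61 promoters (16.4%). Of all 32851 mouse promoters in the same table, 3.44% held them. The letters TTCNNNGAA, a pattern bound by STAT proteins, occurred in 5 of the 61 (8.20%) and in 8.30% of all promoters. The 4 stretches below lie upstream of the start in the direction of the gene, with the paired element in capitals, and were chosen to show a near-identical pair (Trim30a and Trim30d), another gene of the same cluster (Trim12c) and a member that held the letters and was not called (Trim26).
Trim30a, chr7:104465194-104465289, minus strand: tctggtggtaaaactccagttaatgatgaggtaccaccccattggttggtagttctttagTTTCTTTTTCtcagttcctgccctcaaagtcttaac
Trim30d, chr7:104507850-104507950, minus strand: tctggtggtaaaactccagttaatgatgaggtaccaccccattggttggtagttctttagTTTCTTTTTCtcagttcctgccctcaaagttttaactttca
Trim12c, chr7:104353350-104353438, minus strand: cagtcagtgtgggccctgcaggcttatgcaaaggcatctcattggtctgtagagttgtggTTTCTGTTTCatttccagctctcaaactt
Trim26, chr17:36836926-36837055, plus strand: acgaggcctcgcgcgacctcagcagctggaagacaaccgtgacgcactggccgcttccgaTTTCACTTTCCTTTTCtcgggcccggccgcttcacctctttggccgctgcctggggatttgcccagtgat
Trim30a and Trim30d agreed at 95 of 96 aligned bases of this stretch. In Trim26 the capitals hold a pair of overlapping matches. The element also occurred in a promoter of Trim2, Trim5, Trim12a, Trim21 and Trim34a. A match is a description of letters and not of a binding site.

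Of the 61 members, 43 passed the filter and were tested. Of these, 22 were called higher and 8 lower in the co-injection group, and 13 were not called. Over all tested genes, 31.5% were called higher and 31.3% lower, so that the members called higher were a larger share (51.2%) and those called lower a smaller share (18.6%) than among all genes. The median log2 fold change was 0.30 over the tested members and 0.01 over all tested genes. Outside the list of antiviral and interferon-related members described below, 13 of 31 tested members were called higher and 8 lower. Their median was 0.22. A log2 fold change of at least 1 was reached by 10 of the upregulated members, against 8.65% of all genes, and of -1 or below by 3 of the downregulated members, against 7.17% of all genes. With the trend over gene length removed from each library, 16 members were upregulated and 11 downregulated, where 29.9% and 40.1% of all genes were. With the trend over length and GC content removed, 17 and 12 were, against 30.5% and 41.0% of all genes. The FPKM values of the groups did not overlap in 25 tested members that were higher and 9 that were lower in LLC with BMSCs, while 37.0% and 33.7% of all tested genes did so. Of the 43, 39 passed the filter in each group taken alone, and 20 of these were upregulated and 7 downregulated. Trim5, Trim43b and Trim80 passed only through LLC with BMSCs and Trim72 only through LLC alone, the groups in which they were higher.

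**Figure D1:**
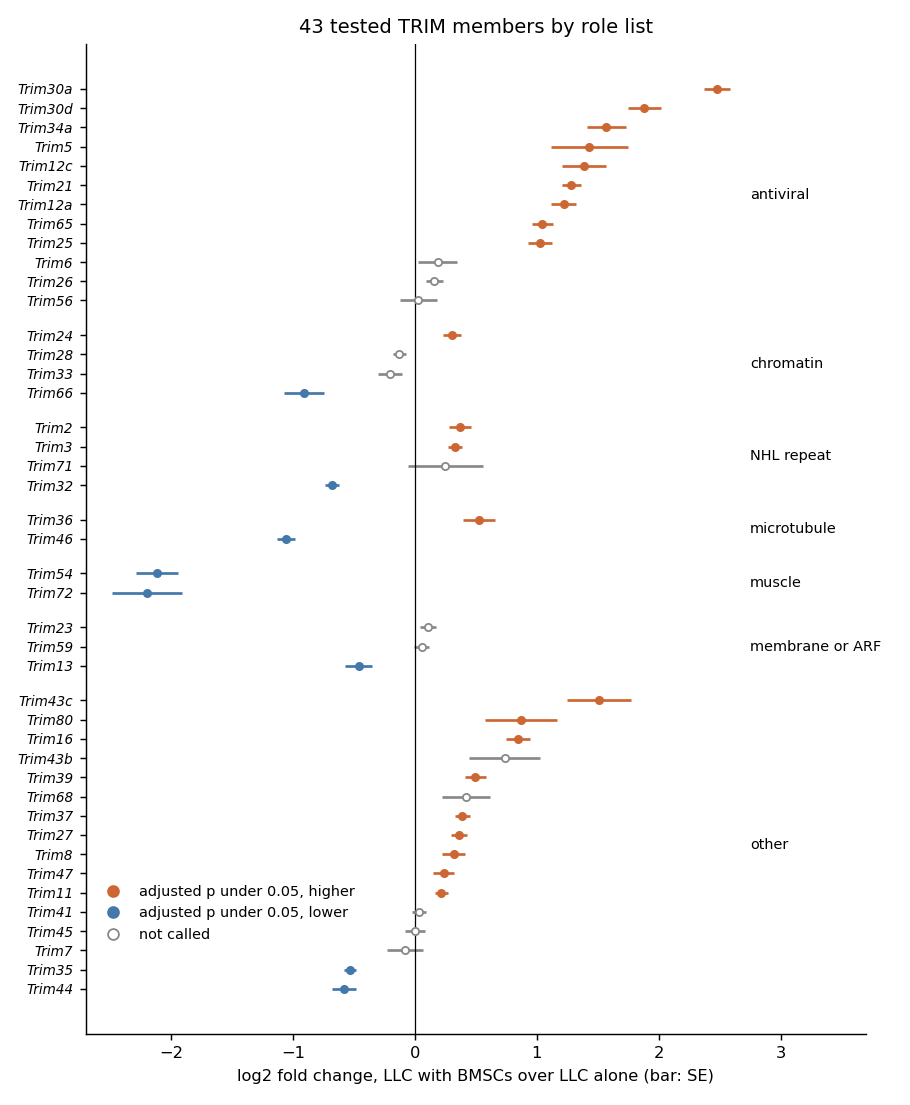
The log2 fold change of LLC with BMSCs over LLC alone (horizontal axis) is drawn with its standard error for each of the 43 tested TRIM members, grouped by role. The 9 filled points of the antiviral list lie at 1.02 to 2.48, the tested muscle members at -2.12 and -2.20, and most other members within 1 of 0. Trim5 passed the filter only through LLC with BMSCs and Trim72 only through LLC alone.

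The antiviral and interferon-related TRIM genes included the largest rises of the family. Of 16 measured members of this list, 12 were tested, 9 were upregulated, each by a log2 fold change above 1, and 3 were not called. Over all tested genes, 31.5% were called higher, and 8.65% with a log2 fold change of at least 1. Leaving aside Trim5, which passed the filter in a single group, 8 of 11 were upregulated. The list's median log2 fold change was 1.25, against 0.01 over all tested genes. The summed level of the 16 members was 43.11, 45.29 and 37.14 FPKM in LLC alone and 70.65, 68.78 and 70.53 FPKM in LLC with BMSCs, without overlap. Trim25 and Trim26 made up the largest parts of these sums in LLC alone, and Trim25 the largest in each library of LLC with BMSCs. In the same libraries the summed BMSC or fibroblast, neutrophil and macrophage markers given above were also higher. Among the macrophage markers, Cd68 was lower (means of 5.55 and 3.03 FPKM) and Cd14 was not called. The part of these markers' cells in the TRIM differences was not tested.

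Trim30a, an interferon-induced gene that restrains NF-kappaB signalling, showed the largest rise of the family. It stood at 0.52, 0.58 and 0.45 FPKM in LLC alone and at 2.98, 2.89 and 2.87 FPKM in LLC with BMSCs. All co-injected libraries lay above all libraries of LLC alone, and the fold was 5.58 (log2 fold change 2.48, SE 0.11, adjusted p = 1.55e-06 by edgeR's quasi-likelihood test). Its neighbour and close copy Trim30d stood at 0.29, 0.30 and 0.26 FPKM and at 1.06, 0.95 and 1.11 FPKM. The groups again did not overlap, with a log2 fold change of 1.88 (SE 0.14, edgeR adjusted p = 2.05e-05). Both genes had estimated counts that were not whole in all 6 libraries, as happens when reads that match several genes are divided. When the counts of Trim30a to Trim30d were summed before the fit, the log2 fold change was 2.30 (SE 0.10, edgeR adjusted p = 1.92e-06).

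The rodent relatives of primate TRIM5, the retrovirus restriction factor that recognises viral capsids, rose together. Trim12c stood at 1.06, 1.47 and 0.86 FPKM in LLC alone and at 2.62, 3.08 and 3.24 FPKM in LLC with BMSCs (log2 fold change 1.39, SE 0.18, edgeR adjusted p = 0.000385). Trim12a stood at 1.10, 1.05 and 1.15 FPKM and at 2.47, 2.38 and 2.60 FPKM (log2 fold change 1.22, SE 0.10, edgeR adjusted p = 4.06e-05). In each the lowest co-injected library was above the highest library of LLC alone. The mouse gene Trim5 itself was low, at 0.14, 0.15 and 0.07 FPKM and at 0.30, 0.25 and 0.40 FPKM, with a log2 fold change of 1.43 and the largest standard error of the 9 upregulated antiviral members (0.31, edgeR adjusted p = 0.00477). Counts that were not whole were found in 4 libraries for Trim12a, 6 for Trim12c and 5 for Trim5, so that the division of reads among these genes is uncertain. The summed counts of Trim12a and Trim12c gave a log2 fold change of 1.34 (SE 0.14, edgeR adjusted p = 0.000101).

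Trim34a, another interferon-induced member, stood at 0.40, 0.50 and 0.43 FPKM in LLC alone and at 1.53, 1.15 and 1.30 FPKM in LLC with BMSCs. The groups did not overlap, and the log2 fold change was 1.57 (SE 0.16, edgeR adjusted p = 0.000103). Trim21, a cytosolic antibody receptor that directs antibody-bound virus to the proteasome, stood at 1.65, 1.81 and 1.69 FPKM and at 4.15, 4.30 and 4.22 FPKM. Its libraries were tight within each group, and its log2 fold change was 1.28 (SE 0.08, edgeR adjusted p = 7.89e-06).

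Trim25 and Trim65, family members that act on the RNA sensors, were higher too. Trim25, which ubiquitinates the sensor RIG-I, was the most abundant of the upregulated antiviral members. Its libraries held 14.47, 15.37 and 11.73 FPKM without BMSCs and 27.91, 28.87 and 28.95 FPKM with them. All co-injected libraries were higher, with a log2 fold change of 1.02 (SE 0.10, edgeR adjusted p = 7.21e-05). Trim65, which ubiquitinates the sensor MDA5, stood at 1.15, 1.15 and 1.18 FPKM and at 2.36, 2.50 and 2.43 FPKM (log2 fold change 1.05, SE 0.08, edgeR adjusted p = 3.04e-05). Both genes lie on chromosome 11. An exon of Trim65 overlaps one of Trim47 by 176 bases on the same strand, and the counting of such reads is uncertain.

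Trim6, Trim26 and Trim56 were the tested antiviral members that were not called. Trim6, which makes free ubiquitin chains in interferon signalling, stood at 0.54, 0.64 and 0.53 FPKM and at 0.53, 0.63 and 0.76 FPKM, and its groups overlapped (log2 fold change 0.19, SE 0.16). Trim26, a regulator of virus-induced interferon, stood at 14.24, 14.58 and 13.75 FPKM and at 17.30, 15.22 and 15.65 FPKM, without overlap but with a log2 fold change of 0.16 (SE 0.07, edgeR adjusted p = 0.0723). Trim56, which takes part in sensing of cytosolic DNA and RNA, stood at 7.38, 7.56 and 4.87 FPKM and at 7.18, 6.40 and 6.76 FPKM. Its lowest value was that of LLC alone replicate 3, and its log2 fold change of 0.03 (SE 0.15) turned to -0.32 (edgeR adjusted p = 0.000305) with the length trend removed. The other measured members of the list, Trim14, Trim30b, Trim38 and Trim69, were too low to test. Trim14, an adaptor at the mitochondrial sensor platform, had counts of 2, 2 and 0 in LLC alone and 10, 5 and 5 in LLC with BMSCs, while Trim30b had 1, 1 and 0 and 2, 5 and 2. At such counts no difference can be read.

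**Figure D2:**
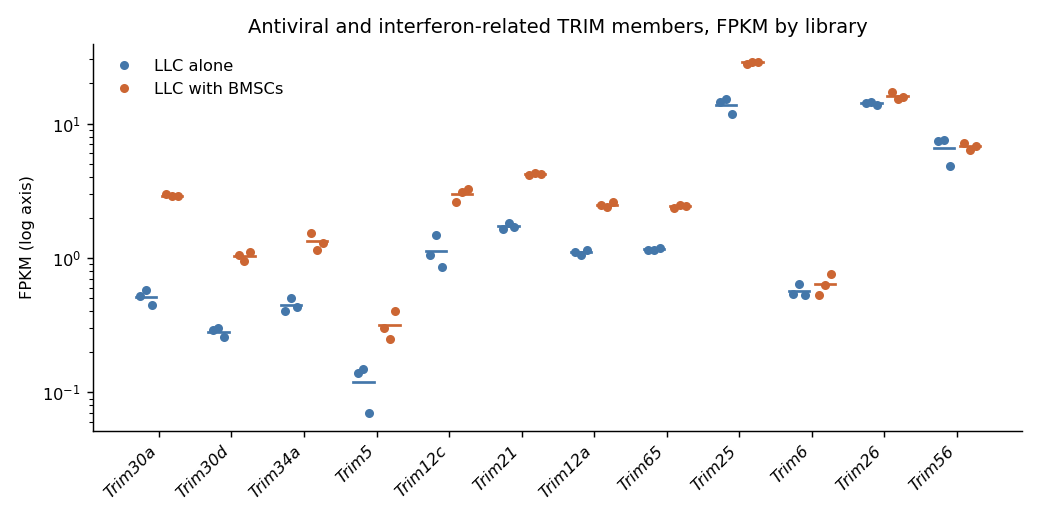
FPKM on a log axis is shown for the 12 tested antiviral members, 1 point per library with group means as lines. The points of LLC with BMSCs lie above those of LLC alone in all genes drawn from Trim30a to Trim25 and in Trim26, and the groups overlap in Trim6 and Trim56.

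Most of these genes are neighbours. On GRCm38, Trim6, Trim34a, Trim5, Trim12a, Trim12c, Trim30b, Trim30a and Trim30d lie in this order within 289 kb of chromosome 7, from position 104218793 to 104507849, all protein coding. The deposited tables hold no coordinates, and the submitters' processing notes name an older build (mm8), so that positions here are those of the reference annotation, matched by symbol. Of the 8 genes, 7 were tested and 6 upregulated, and the exceptions were Trim6 at the end of the cluster and the untested Trim30b. Over all tested genes, 31.5% were called higher and 31.3% lower. The reads of Trim30a and Trim30d, and of Trim12a, Trim12c and Trim5, may be divided among copies, so their calls are not independent. Trim5 passed the filter only through LLC with BMSCs. Trim21, Trim68 and Trim28 lie before the cluster on the same chromosome and Trim3, Trim66 and Trim72 after it. Over all of chromosome 7, 8 of 13 tested members were upregulated (against 31.5% of all tested genes), 2 (Trim66 and Trim72) were downregulated (against 31.3%) and 3 were not called. Trim68, an SPRY-type member, stood at 0.64, 0.60 and 0.66 FPKM and at 0.80, 1.10 and 0.67 FPKM, with a log2 fold change of 0.42 (SE 0.20, edgeR adjusted p = 0.0997). It was called only without LLC with BMSCs replicate 3 (0.57, edgeR adjusted p = 0.0384). A smaller TRIM group on chromosome 17 held Trim39, Trim26, Trim15, Trim10 and Trim40, of which 2 were tested and 1, Trim39, was upregulated.

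**Figure D3:**
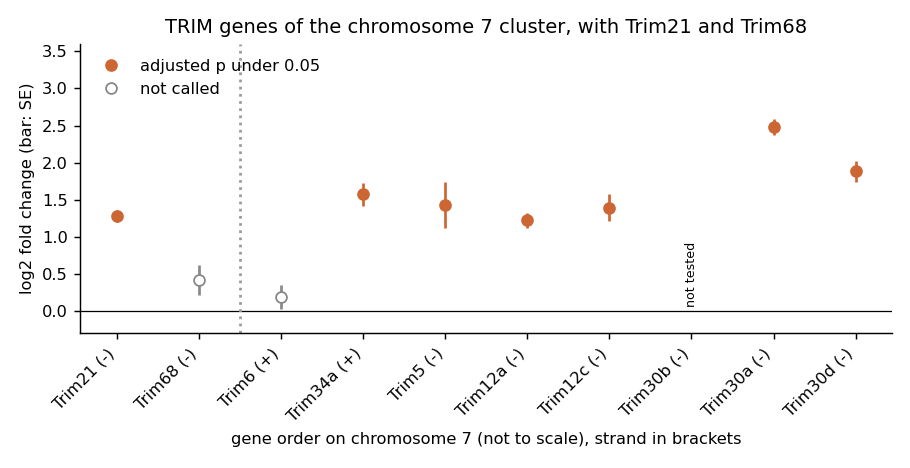
The log2 fold change with its standard error is drawn for the 8 TRIM genes of the chromosome 7 cluster in their order, with strands in brackets and with Trim21 and Trim68, which lie before it, left of the dotted line. Trim28, Trim3, Trim66 and Trim72 of the same chromosome are not drawn. The genes from Trim34a to Trim30d that were tested lie at 1.22 to 2.48, and the points of Trim68 and Trim6 at 0.42 and 0.19.

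The promoter letters can be set beside these calls. Of the 15 upregulated members with a RefSeq promoter, 8 held GAAANNGAAA on either strand, namely Trim2, Trim5, Trim12a, Trim12c, Trim21, Trim30a, Trim30d and Trim34a. Among the 11 members with a promoter that were not called, only Trim26 did, and the 7 downregulated members had no match within these windows. Over all tested genes with a promoter, 5.17% of the upregulated, 3.17% of the uncalled and 3.25% of the downregulated genes held the letters. Several of the 8 genes are copies of one another, so their matches are not independent. The match began 36 bases before the start of Trim30a, 41 before that of Trim30d, 29 before that of Trim12c and 49 before that of Trim5, and in Trim12a and Trim34a it began 10 bases after the first base.

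The chromatin regulators of the family, which include its most abundant transcript, Trim28, had calls in both directions. Of the 4 tested, 1 was upregulated (25.0%, against 31.5% of all tested genes) and 1 downregulated (25.0%, against 31.3%). The other 2 were not called. The median of their log2 fold changes was -0.17. Trim28 (KAP1), the corepressor of KRAB zinc finger proteins that silences retroelements, was the highest member of the family, at 82.86, 87.43 and 88.41 FPKM in LLC alone and at 80.45, 79.84 and 79.88 FPKM in LLC with BMSCs. It held 19.2% to 23.0% of the summed FPKM of all members in a library. The groups did not overlap, but the fitted difference of -8.5% was not called (log2 fold change -0.13, SE 0.05, edgeR adjusted p = 0.0726). With the length trend removed it was called at -0.24 (edgeR adjusted p = 0.00112).

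Trim33, a cofactor and ligase of SMAD signalling, stood at 17.17, 17.58 and 13.53 FPKM and at 14.46, 13.70 and 14.26 FPKM. LLC alone replicate 3 lay below all co-injected libraries while the other libraries of LLC alone lay above them. The log2 fold change of -0.21 (SE 0.10, edgeR adjusted p = 0.103) was not called, and without LLC alone replicate 3 it was -0.31 (edgeR adjusted p = 0.000348). Trim24, a cofactor of nuclear receptors that also ubiquitinates p53, stood at 7.46, 7.36 and 6.66 FPKM and at 8.78, 8.42 and 8.65 FPKM. All co-injected libraries were higher, and the log2 fold change was 0.30 (SE 0.07, edgeR adjusted p = 0.00669). With the length trend removed this call was lost. Trim66, a relative best known from the testis, was low, at 0.61, 0.55 and 0.41 FPKM and at 0.28, 0.27 and 0.30 FPKM, and was downregulated with a log2 fold change of -0.91 (SE 0.16, edgeR adjusted p = 0.0019).

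Members with NHL repeats, a propeller-shaped domain that binds RNA or proteins, changed in both directions. Of the 4 tested, Trim2 and Trim3 were upregulated, Trim32 was downregulated and Trim71 was not called. Over all tested genes, 31.5% were called higher and 31.3% lower. Trim32, a ligase of muscle and neural proteins mutated in a limb-girdle muscular dystrophy, stood at 17.52, 17.75 and 16.67 FPKM in LLC alone and at 11.23, 11.06 and 10.61 FPKM in LLC with BMSCs. The groups were well apart, and the fitted level fell by 37.5% (log2 fold change -0.68, SE 0.06, edgeR adjusted p = 3.65e-05). Trim2, which targets neurofilament, had a log2 fold change of 0.37 (SE 0.09), which was 0.07 and not called with the length trend removed. Trim3, a brain-enriched relative, had one of 0.33 (SE 0.06). Trim71, the embryonic stem cell factor LIN41, stood at 0.45, 0.47 and 0.21 FPKM and at 0.44, 0.34 and 0.57 FPKM, with overlapping groups.

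The muscle and microtubule members included the largest falls. Trim54 (MURF3), which binds microtubules and sarcomere proteins in muscle, stood at 4.48, 4.57 and 5.70 FPKM in LLC alone and at 1.09, 0.94 and 1.42 FPKM in LLC with BMSCs. The lowest library of LLC alone was above the highest co-injected library, and the log2 fold change was -2.12 (SE 0.17, edgeR adjusted p = 3.56e-05). Trim72 (MG53), which takes part in repair of the muscle cell membrane, fell from 0.41, 0.26 and 0.48 FPKM to 0.08, 0.08 and 0.09 FPKM (log2 fold change -2.20, SE 0.29, edgeR adjusted p = 0.000395), on counts of 21 to 53 and of 9 in each co-injected library. Trim72 passed the filter only through LLC alone, the group in which it was higher. The other muscle members, Trim55 and Trim63, were too low to test. A list of muscle cell markers summed to 6.41 to 7.43 CPM in LLC alone and to 4.33 to 5.22 CPM in LLC with BMSCs. Of 3 tested, 1 was downregulated (Des, desmin, 5.09 to 6.39 CPM and 2.70 to 4.02 CPM), against 31.3% of all tested genes. The other tested markers, Mylpf and Acta1, had log2 fold changes of 0.29 and 0.38 and were not called, and the defining markers Ckm and Tnnt3 had means at or below 0.03 FPKM in both groups. Whether this list and the fall of the muscle members are linked was not tested.

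Trim46, which bundles microtubules at the start of the axon, stood at 5.04, 5.16 and 4.89 FPKM and at 2.59, 2.40 and 2.65 FPKM. All co-injected libraries were lower, with a log2 fold change of -1.05 (SE 0.07, edgeR adjusted p = 1.63e-05). Its exons overlap those of Krtcap2 by 239 bases on the opposite strand, and the mean count of Krtcap2 was 4791 in LLC alone and 2321 in LLC with BMSCs. Whether the counting used the strand is not stated, so reads from the shared bases cannot be assigned. Trim36, a microtubule-binding member with a role in the cell cycle, was upregulated at a low level, from a mean of 0.507 to one of 0.743 FPKM (log2 fold change 0.53, SE 0.13), a call that was lost with the length trend removed (0.32).

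Of the members anchored in membranes or carrying an ARF domain, 1 of 3 was called, and it was lower. Over all tested genes, 31.5% were called higher and 31.3% lower. Trim13, a ligase of the endoplasmic reticulum that takes part in degradation of misfolded proteins, stood at 4.82, 4.32 and 5.49 FPKM in LLC alone and at 3.58, 3.59 and 3.34 FPKM in LLC with BMSCs. The groups did not overlap, and the log2 fold change was -0.46 (SE 0.11, edgeR adjusted p = 0.00707). Trim59, an abundant membrane-bound member, stood at 45.42, 45.17 and 43.55 FPKM and at 43.73, 48.71 and 48.83 FPKM, with overlapping groups and a log2 fold change of 0.05 (SE 0.06). Trim23, which carries its own ARF GTPase domain, had a log2 fold change of 0.11 (SE 0.06) and was not called. With the trend over length and GC content removed it was called lower.

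The remaining 26 members had no shared role, and 16 of them were tested. Upregulation was called in 9 (56.2%, against 31.5% of all tested genes) and downregulation in 2 (12.5%, against 31.3%). The median was 0.34 on the log2 scale. Trim35, a member with roles in cell death and metabolism, came next to Trim28 and Trim59 in level, at 36.25, 35.89 and 35.24 FPKM without BMSCs and 24.85, 25.53 and 24.89 FPKM with them. Its groups were tight and far apart, with a log2 fold change of -0.53 (SE 0.05, edgeR adjusted p = 7.91e-05). Trim44, which lacks the RING finger, fell as well, from a mean of 12.3 to one of 8.34 FPKM (log2 fold change -0.58, SE 0.10).

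Trim8, which promotes signalling from the TNF receptor, was among the 5 highest members, at 18.17, 16.44 and 18.77 FPKM and at 25.07, 20.52 and 21.97 FPKM. The groups did not overlap, but LLC with BMSCs replicate 1 was well above the others of its group. The log2 fold change of 0.32 (SE 0.09, edgeR adjusted p = 0.0181) kept its sign but was not called without LLC with BMSCs replicate 1 (0.23, edgeR adjusted p = 0.053) or without LLC alone replicate 2 (0.26, edgeR adjusted p = 0.0535). Of the other upregulated members in this group, Trim43c had the largest fold, from a mean of 0.237 to one of 0.657 FPKM (log2 fold change 1.51, SE 0.26), and belongs to a family active in the early embryo. Its counts were not whole in any library, and it overlaps 9330159M07Rik on the opposite strand by 415 bases, whose mean count was 646.8 in the first group and 1291.5 in the second.

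Trim16, which lacks the RING finger and takes part in the handling of damaged membranes, rose from a mean of 1.74 to one of 3.16 FPKM (log2 fold change 0.84, SE 0.10). The other upregulated members were Trim80, Trim39, Trim37, Trim27, Trim47 and Trim11, with log2 fold changes of 0.22 to 0.87, of which Trim27 and Trim11 were not called with the length trend removed. The call of Trim47 (0.24) held only without LLC alone replicate 3 (0.33) among the fits that left out 1 library, and the other such fits gave 0.17 to 0.27. Trim80 (0.87) lost its call without LLC alone replicate 1 or 2 (0.91 and 0.73) and without LLC with BMSCs replicate 1 or 3 (0.84 and 0.74). Trim7, Trim41, Trim43b, Trim45 and Trim68 were not called. Trim45 had the smallest difference of all tested members, at 1.89, 2.06 and 2.07 FPKM without BMSCs and 2.15, 2.18 and 2.06 FPKM with them, and had a log2 fold change of 0.003 (SE 0.08).

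**Figure D4:**
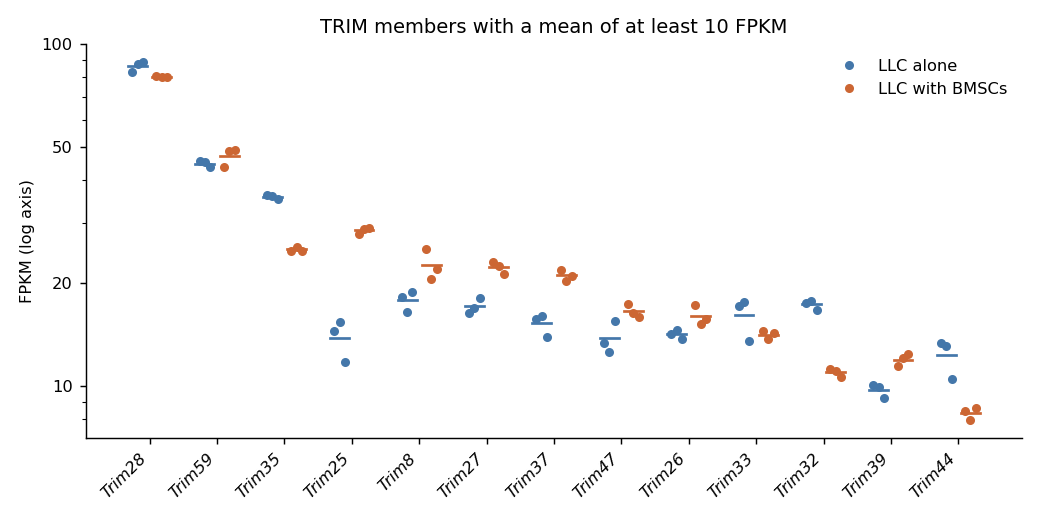
FPKM on a log axis is shown for the 13 members with a mean of at least 10 FPKM, ordered by that mean, with 1 point per library and group means as lines. Trim28 lies at 79.84 to 88.41, Trim35, Trim32 and Trim44 lie lower and Trim25 higher in LLC with BMSCs, and Trim59 and Trim33 overlap between the groups.

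By level, the members ranged from 83.1 FPKM (Trim28, mean of the 6 libraries) through 45.9 (Trim59), 30.4 (Trim35), 21.2 (Trim25) and 20.2 FPKM (Trim8) down to genes listed at 0 in most libraries. At least 1 FPKM in a group was reached by 32 members, and all 61 members summed to 384.82 to 399.16 FPKM without BMSCs and to 412.08 to 418.40 FPKM with them. Trim28 was highest and Trim59 next in every library. Trim35 followed in LLC alone and lay below Trim25 in each co-injected library. Trim25 lay below Trim8 and Trim27 in each library of LLC alone and above both in each co-injected library. The 18 members that could not be tested had at most 17 counts in any library and a mean of at most 0.125 FPKM. They were Trim9, Trim10, Trim14, Trim15, Trim17, Trim30b, Trim38, Trim40, Trim43a, Trim50, Trim55, Trim58, Trim60, Trim62, Trim63, Trim67, Trim69 and Trim75.

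In some genes the share of single transcripts differed between the groups, which is described here without a test, since it rests on estimates that divide reads among overlapping forms. For Trim2, an assembled transcript held 27.96%, 39.17% and 50.50% of the gene's FPKM in LLC alone and 13.59%, 8.21% and 4.67% in LLC with BMSCs. The RefSeq transcript NM_001271727 held 27.80%, 20.55% and 20.12% and 40.39%, 49.66% and 45.07%. The groups did not overlap for either form, although the gene as a whole rose by only 0.37 on the log2 scale. In FPKM, NM_030706 (means of 1.88 and 2.62) and NM_001271728 (0.203 and 0.573) were also higher without overlap. The same held for another assembled form (0.0367 and 0.263). For Trim6, which was not called, the assembled form stood at 0.12, 0 and 0.15 FPKM and at 0.26, 0.48 and 0.59 FPKM, while the RefSeq form stood at 0.42, 0.64 and 0.38 FPKM and at 0.28, 0.15 and 0.17 FPKM. For Trim39, a regulator of cell cycle and apoptosis, the longer assembled form stood at 2.31, 2.61 and 1.34 FPKM and at 4.34, 3.98 and 4.17 FPKM, and the RefSeq form at a mean of 7.65 and of 7.78 FPKM. Of 2 assembled forms of Trim37, a centriole regulator, one stood at 5.77 ± 1.38 FPKM and at 10.5 ± 1.67 FPKM (SD, n = 3), and the other at 2.39 ± 0.156 and 2.83 ± 0.477 FPKM with overlapping groups. Its RefSeq form stood at 7.08 ± 0.222 and 7.70 ± 0.477 FPKM. These genes were singled out after their values were seen, and the length trend of LLC alone replicate 3 bears on forms of unlike length.

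**Figure D5:**
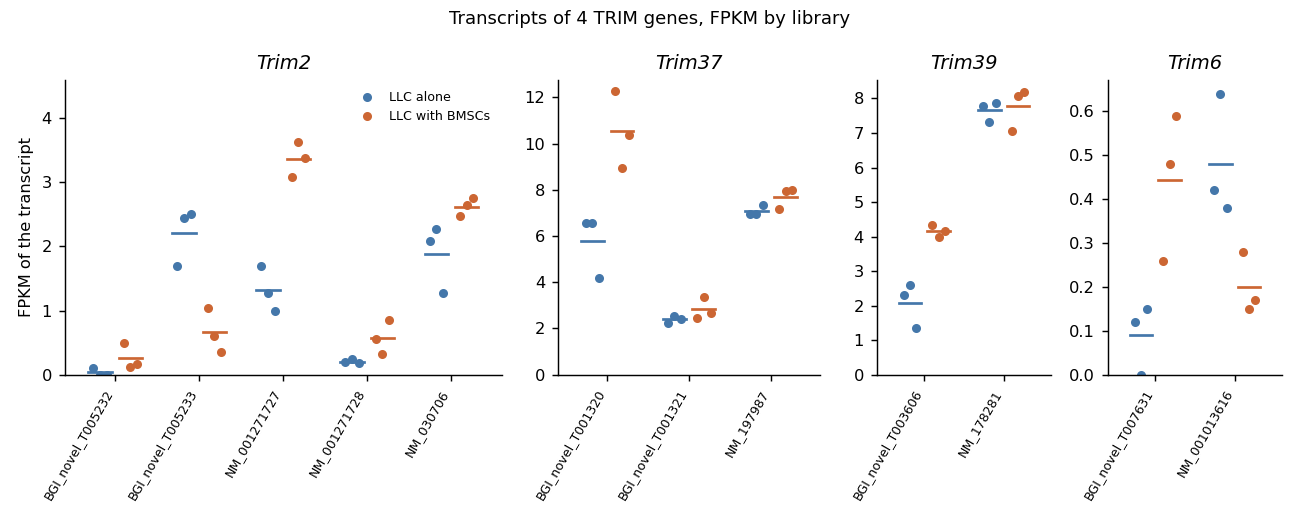
FPKM per library (points) and group means (lines) are shown for the transcripts of Trim2, Trim37, Trim39 and Trim6 with a mean of at least 0.1 FPKM, on a linear axis from 0 for each gene. In Trim2 one form is lower and the other drawn forms are higher in LLC with BMSCs, and in Trim6 one form is lower and the other higher. In Trim37 and Trim39 one form is higher and the others overlap between the groups.

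Genes that work with the TRIM ligases were followed from lists. Of 22 partners in nucleic acid sensing, all tested, 11 were upregulated (11 of 22, against 31.5% of all tested genes) and 5 downregulated (against 31.3%), and the median was 0.24 on the log2 scale. The largest rises were those of Irf7, a transcription factor of the interferon response (0.28 to 10.5 FPKM, log2 fold change 5.21, SE 0.12), Ifih1, which encodes MDA5 (0.0767 to 1.06 FPKM, log2 fold change 3.89, SE 0.14), and Ikbke, a kinase that activates interferon regulatory factors (1.21 to 9.91 FPKM, log2 fold change 3.00, SE 0.08). Ddx58, which encodes RIG-I, the target of Trim25, rose from 4.17 to 27.5 FPKM (log2 fold change 2.70, SE 0.06). The largest falls in this list were small, at -0.31 for Mavs, the adaptor of both sensors, -0.31 for Tab2 and -0.28 for Nlrx1. Rnf135 of the same list was also called lower, from 3.46 to 2.90 FPKM (log2 fold change -0.28, SE 0.09).

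Among ubiquitin genes and the E1 and E2 enzymes, 4 of 25 tested were upregulated (16.0%, against 31.5% of all tested genes) and 6 downregulated (24.0%, against 31.3%), with a median of -0.08 on the log2 scale. The rises included Uba7 and Ube2l6, which activate and transfer the ubiquitin-like modifier ISG15. Uba7 rose from 0.297 to 3.52 FPKM (log2 fold change 3.54, SE 0.11, edgeR adjusted p = 4.03e-07) and Ube2l6 from 12.1 to 21.3 FPKM (log2 fold change 0.79, SE 0.06, edgeR adjusted p = 3e-05). Ube2g2, an E2 of endoplasmic reticulum degradation, fell by 1.32 on the log2 scale. Ube2w, Ube2e1 and Ube2k were also called lower, with log2 fold changes of -0.70, -0.56 and -0.41. The ubiquitin E1 gene Uba1 fell from 206.3 to 167.8 FPKM (log2 fold change -0.32, SE 0.07).

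Of 15 partners in silencing by KRAB zinc finger proteins and Trim28, 5 were upregulated (5 of 15, against 31.5% of all tested genes) and 3 downregulated (against 31.3%), with a median of -0.09 on the log2 scale. Setdb1, the histone methyltransferase recruited by Trim28, rose from 23.1 to 36.7 FPKM (log2 fold change 0.70, SE 0.09, edgeR adjusted p = 0.000316), while Trim28 was not called. Fam208a and Pphln1, of the HUSH silencing complex, had log2 fold changes of 0.60 and 0.56, while Mphosph8 of the same complex was not called (-0.18). Chd4 and Cbx5 were called higher as well, with log2 fold changes of 0.57 and 0.45. The genes called lower were Sumo2, Hdac2 and Cbx1, at -0.38, -0.30 and -0.22.

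TRIM family genes with other symbols numbered 4 among the tested genes. Pml, the organiser of nuclear bodies, rose from 9.33 to 12.0 FPKM (log2 fold change 0.34, SE 0.08), and the microtubule-associated Mid1 from 2.39 to 3.48 FPKM (log2 fold change 0.54, SE 0.13). Rnf207 was upregulated with a log2 fold change of 1.03 (SE 0.11), and Bspry was downregulated with one of -1.22 (SE 0.38).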

How the data were processed

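RNA sequencing of 6 libraries of sorted LLC cells (3 per group) was used, and every library's group was taken from its sample label. The authors deposited estimated counts, which need not be whole numbers, FPKM values and a mean length in bases for each gene, and the same for each transcript. Per the labels' processing notes, HISAT, StringTie, Cufflinks and GATK and the build mm8 were named, without versions. The paper names no counting tool or strand setting for these values. A table of the whole series that repeats the FPKM values was not used. Gene symbols stored as dates were restored from their identifiers.

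Estimated counts were rounded and fitted over all genes with edgeR 4.0.16 in R 4.3.3 (TMM, default filter on low counts, quasi-likelihood test, Benjamini-Hochberg adjustment), which was tested on simulated data. Standard errors were derived from each fold change and its F statistic. The alternatives used DESeq2 1.42.0, limma 3.58.1 and mgcv 1.9.3. An exact permutation test of 3 against 3 libraries cannot give p below 0.1. Positions came from GENCODE M21 and promoters from RefSeq, both on GRCm38.

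The members, the role lists and the pathway lists were chosen with earlier results of these data known, so no p adjusted over a list alone is given. Named singly were members with a log2 fold change of at least 1 in size and at least 1 FPKM in a group, the 5 highest members, the measured antiviral and chromatin members and the member with the smallest change. In pathway lists the largest rises and falls and some of the called genes were named. Other members and pathway genes named with values were chosen after these were seen. A search for protein features was not run.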

Additional observations from a re-analysis of the deposited data

How the results depend on the processing

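With 3 libraries a group and an unexplained trend over transcript length in LLC alone replicate 3, small differences are the least firm. Of 30 called members, 22 were called in every alternative in which they were tested, stricter thresholds aside, all 9 upregulated antiviral members among them, and 8 lost the call in at least 1. Low genes are limited by depth, and limma on FPKM tested only 31 members.

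Leaving out each library in turn gave 20 to 23 upregulated and 8 to 9 downregulated members, 9 upregulated antiviral members in each case, 2 to 3 called chromatin members, 17 to 20 called members of the other role lists and 30 to 44 called genes of the pathway lists (main values 22, 8, 9, 2, 19 and 38). In these fits 43 to 46 members were tested, and 26.8% to 35.0% of all tested genes were called higher and 26.5% to 33.5% lower. Both shares were highest without LLC alone replicate 3, the fit with 23 upregulated members. The third chromatin call is Trim33 without LLC alone replicate 3. With a log2 fold change of at least 1 required, 10 members were upregulated and 3 downregulated, with 0 chromatin members, 4 of the other role lists and 9 pathway genes. Of all tested genes, 8.65% were called higher and 7.17% lower at that threshold. With an adjusted p under 0.001 the numbers were 9, 5, 0, 6 and 13, and the share of all genes was not computed. On log2(FPKM + 1) and log2(FPKM + 0.1), limma called 1 chromatin member each. The lower numbers at the stricter thresholds follow from those thresholds. In limma, Trim66 was too low in FPKM to be tested, while Trim24 kept its call.

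With the length trend removed, 3994 genes were upregulated and 5353 downregulated in all, and with length and GC removed 4075 and 5474, against 4210 and 4183. Trim56 turned to -0.3161 and -0.2965, and Trim24 to -0.004757 with length and GC removed. Trim2, Trim24, Trim27 and Trim36 lost their calls in both, and Trim28, Trim33 and Trim56 were called lower. Trim23 was called lower with length and GC removed, and its log2 fold changes over the alternatives were -0.16 to 0.16. The cause was not tested. Trim11 lost its call in 5 alternatives, Trim47 in 7, Trim80 in 6 and Trim8 in 4, and Trim26 was called higher in 3.

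Replicate numbers did not pair the samples (correlations of deviations 0.076, -0.106 and 0.057 for numbers 1 to 3). The fit with the replicate block called 22 members upregulated and 8 downregulated, 9 antiviral, 2 chromatin and 19 other members and 34 pathway genes. It called 31.2% of all tested genes higher and 30.4% lower.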
